A study of Homo sapiens with 12 samples.

Results

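CYR61, ANKRD1, AJUBA, CRIM1, YAP1, TEAD1, TEAD2, TEAD4 and LATS2 are 9 genes of the YAP-TEAD arm of the Hippo pathway, and they were followed here through 12 polyA RNA libraries of CAL62, an anaplastic thyroid carcinoma line. They were picked by name, with earlier results of these data known. All 9 were found among the 37471 genes of the table. All were also among the 9778 genes tested, those with a mean of at least 1 FPKM (fragments scaled to transcript length and library size). The study compared isogenic CAL62 lines in which doxycycline switches on either the mature miRNA hsa-miR-139-5p or a scrambled, non-targeting control. The groups were the miR-139 line and the scrambled line, each untreated (time 0 h) or given 1 µg/ml doxycycline for 96 h, with 3 libraries a group. Both lines carry an inducible construct and both treated groups received doxycycline, so the scrambled line is the control for the drug and for the construct. No group was left untreated for 96 h, so within a line the drug and 96 h of culture cannot be told apart. A difference called doxycycline below is a difference of both. Whether a line is 1 clone or a pool is not given in the labels.

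In the Hippo pathway, the kinases LATS1 and LATS2 phosphorylate the cofactor YAP1 and keep it out of the nucleus. When the kinases are inactive, as in spread or sparse cells, YAP1 enters the nucleus, binds TEAD transcription factors and raises genes such as CYR61 and ANKRD1. The pathway limits organ size and is often disturbed in carcinomas, and the activity of YAP1 is set largely by its phosphorylation and location, which RNA levels do not show.

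The 3 library columns of each group bear the tags C, NE and TR, whose meaning the sources used here do not give, and libraries are named here by group and tag; 3 values of a group are listed in the tag order C, NE, TR. Libraries with the same tag deviated together: over the tested genes, the 18 pairs of same-tag libraries from different groups correlated at r = 0.33 to 0.86 in their deviations from the group means, against −0.66 to 0.14 for 36 pairs with different tags. Each comparison of groups was therefore also fitted with the tag as a replicate block, and both standard errors (SE) are given. HNRNPF, the gene that names the series, was 85.9 to 113 FPKM in the treated miR-139 libraries and 183.6 to 265.2 FPKM in the other 9. Thyroid identity was partial by its markers: PAX8, a thyroid transcription factor, averaged 107 FPKM, whereas NKX2-1 was listed at 0 in all 12 libraries and TSHR did not exceed 0.0128 FPKM. The epithelial keratin KRT18 averaged 663 FPKM and the mesenchymal VIM 1711 FPKM, while CDH1 (E-cadherin) averaged 0.036. FPKM here is a level per unit of RNA from a bulk culture, in which fewer cells of a type and less RNA per cell cannot be told apart.

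The 9 members spanned levels from a matrix protein among the most abundant transcripts to a gene near the low end of those tested. CYR61, which encodes a secreted matricellular protein of the CCN family, averaged 614 ± 112 FPKM (SD over 12 libraries), above 98.6% of the tested genes. CRIM1, a transmembrane protein that binds bone morphogenetic proteins, averaged 66.1 ± 17.5 FPKM, TEAD1 55.9 ± 10.9, AJUBA 50.7 ± 10.8, YAP1 43.5 ± 5.44, TEAD2 42.8 ± 9.75 and TEAD4 27.4 ± 6.47 FPKM. LATS2 averaged 8.82 ± 1.45 FPKM, and ANKRD1, an ankyrin-repeat protein known from heart and skeletal muscle, 3.75 ± 1.44 FPKM. Going down this order, CYR61 exceeded CRIM1 in 12 of 12 libraries, as did TEAD2 over TEAD4, TEAD4 over LATS2 and LATS2 over ANKRD1. The middle of the order was not separated beyond its spread: CRIM1 was above TEAD1 in 10 libraries, TEAD1 above AJUBA in 9, AJUBA above YAP1 in 6 and YAP1 above TEAD2 in 9 of 12.

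**Figure D1:**
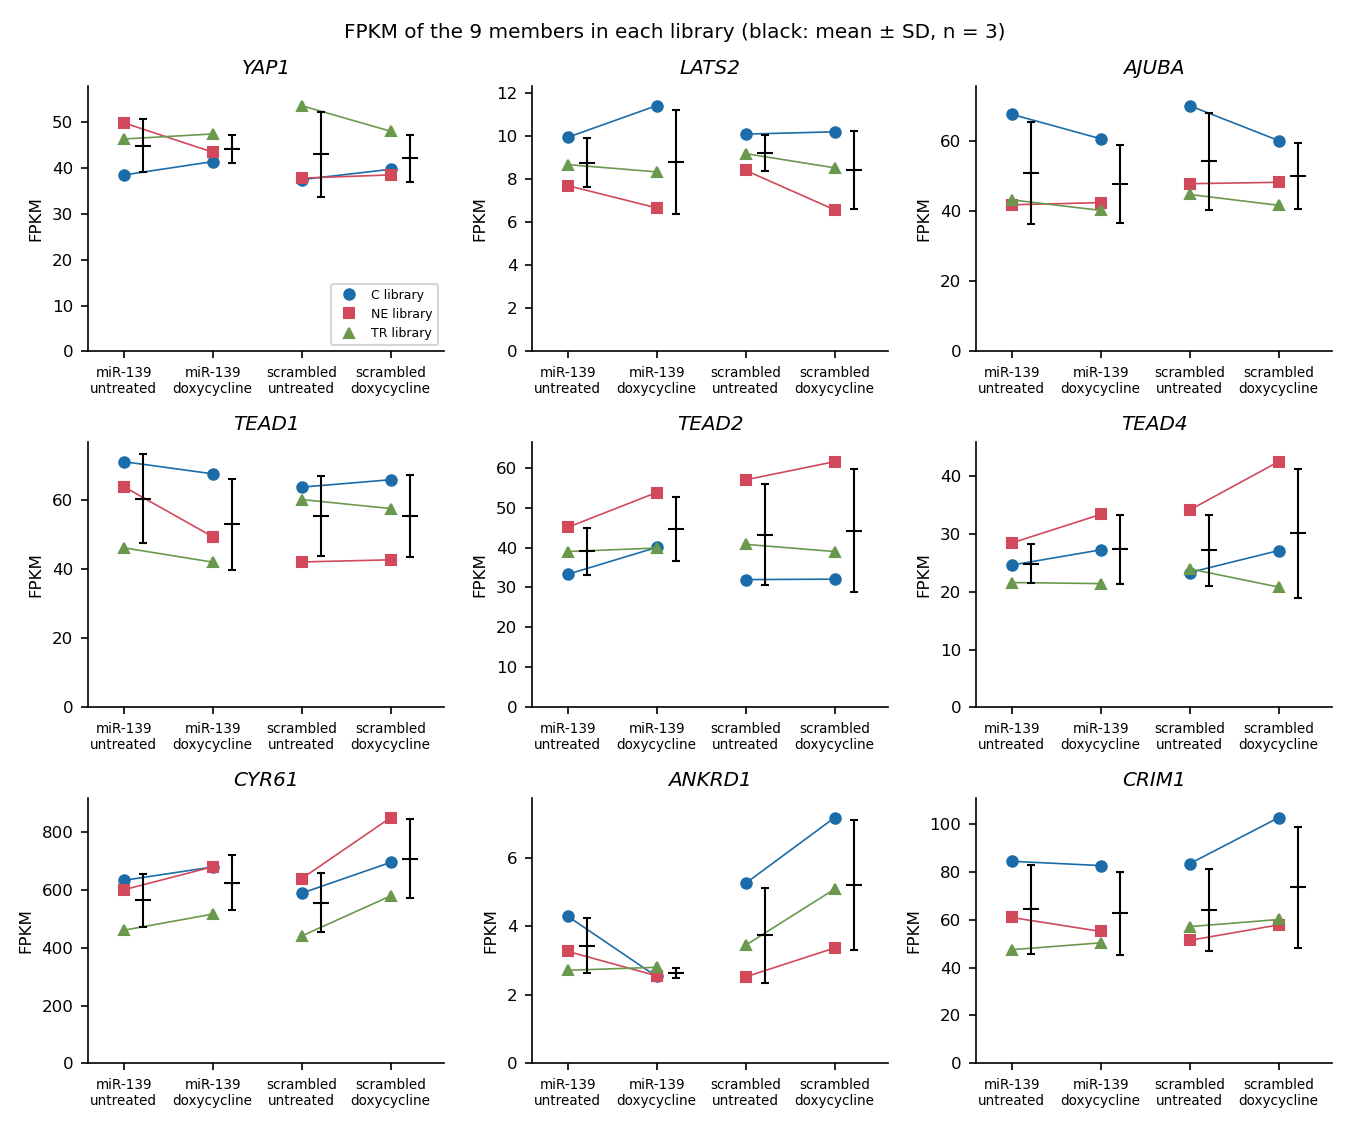
FPKM (y axis, from 0) of the 9 members in each of the 12 libraries by group (x axis). Points are libraries with their column tag, lines join the untreated and treated library of 1 line and tag, and black bars are mean ± SD (n = 3); CYR61 lines slope up in both lines, ANKRD1 separates the treated lines, and AJUBA and CRIM1 are highest in the C library of every group.

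YAP1, the cofactor that carries the signal, did not pass the test for doxycycline in either line. It was 38.5, 49.9 and 46.4 FPKM in untreated and 41.4, 43.5 and 47.5 FPKM in treated miR-139 cells. In scrambled cells it was 37.5, 37.8 and 53.6 FPKM untreated and 39.7, 38.5 and 48.0 FPKM treated. Groups overlapped, and the log2(FPKM + 1) change was −0.02 (SE 0.16, and 0.11 with the block) in miR-139 cells and −0.02 in the scrambled line. WWTR1, the paralog of YAP1 known as TAZ, was not analysed here.

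TEAD1, TEAD2 and TEAD4, the TEAD genes analysed here, encode DNA-binding partners of YAP1 and made up a summed 103 to 147 FPKM per library. The sum and the shares taken from it leave out any other TEAD gene. TEAD1 is also the member with a match to the induced miRNA. A miRNA pairs with 3′ UTRs mainly through its seed, bases 2 to 8, and the search used the complement of the seed, ACTGTAG, in the longest 3′ UTR that GENCODE 29 gives a gene. The mature miRNA (RefSeq, GRCh38.p14, chr11:72615102-72615124, minus strand, seed in capitals) and the stretch around the single match (GRCh38, plus strand, match in capitals) are shown because they are the direct sequence link between the inducer and the members.
hsa-miR-139-5p: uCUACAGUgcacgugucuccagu
TEAD1 3′ UTR: tcctttgcACTGTAGgagattta
The match lies at chr11:12940296-12940302 in exon 8 of 8, spanning 3′ UTR positions 3074 to 3080 out of 7261. It is not followed by the A that would make an 8-base site. None of the other 8 members held the 7 bases in its longest 3′ UTR, and 869 of 7608 tested genes with a 3′ UTR (11.4%) did. A match is a description of the letters and no evidence of pairing.

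TEAD1 was 71.0, 63.8 and 46.1 FPKM in untreated miR-139 cells and 67.4, 49.3 and 41.9 FPKM in the treated ones. Scrambled cells had 63.6, 42.0 and 60.0 FPKM untreated and 65.7, 42.6 and 57.4 FPKM treated. In miR-139 cells the treated library was the lower of its tag in 3 of 3 tags, but the groups overlapped. The change of −0.19 on the log2 scale (SE 0.23, and 0.15 with the block) did not pass the test. With the tag as a block within each line, a fit added after the data were seen, the SE of this change was 0.07. Its unadjusted limma p was then 0.0161 and its adjusted p 0.393, so it did not pass. In that fit 995 of 9778 genes, 3 members among them, had an unadjusted p under 0.05. The change in the scrambled line was 0.00 (SE 0.23), and the difference between the changes was −0.19 (SE 0.33, and 0.21 with the block), which did not pass either. With the block within each line the SE of that difference was 0.10 and its limma adjusted p 0.671.

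TEAD2 was 33.3, 45.0 and 39.0 FPKM in untreated and 40.0, 53.8 and 39.9 FPKM in treated miR-139 cells. It was 32.0, 56.9 and 40.8 FPKM in the untreated and 32.1, 61.5 and 39.0 FPKM in the treated scrambled line. The treated libraries overlapped the untreated ones in both lines, and the changes of 0.18 (SE 0.25, and 0.11 with the block) and 0.02 on the log2 scale did not pass the test. TEAD4 was 24.6, 28.4 and 21.6 FPKM in untreated and 27.3, 33.4 and 21.4 FPKM in treated miR-139 cells. In the control line it was 23.3, 34.2 and 24.0 FPKM untreated and 27.1, 42.5 and 20.8 FPKM treated. Its C and NE libraries were higher after doxycycline in both lines and its TR libraries lower, with changes of 0.12 and 0.11 on the log2 scale (SE 0.25, and 0.11 with the block) that did not pass.

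LATS2 encodes the kinase that restrains YAP1 and is itself a YAP target, so that it sits on both sides of the loop. It was 9.96, 7.71 and 8.69 FPKM in untreated and 11.4, 6.67 and 8.35 FPKM in treated miR-139 cells. In the scrambled line it was 10.1, 8.42 and 9.20 FPKM untreated and 10.2, 6.59 and 8.54 FPKM treated. The groups overlapped, and the changes were −0.02 and −0.13 on the log2 scale (SE 0.20, and 0.11 with the block). AJUBA, a LIM-domain protein of cell junctions that binds and inhibits LATS kinases, was 67.6, 41.8 and 43.2 FPKM in untreated and 60.6, 42.4 and 40.2 FPKM in treated miR-139 cells. It was 70.0, 47.8 and 44.7 FPKM untreated and 60.1, 48.2 and 41.6 FPKM treated in the scrambled line. AJUBA's C and TR libraries were lower after doxycycline in both lines and its NE libraries slightly higher, with changes of −0.08 and −0.10 on the log2 scale (SE 0.24, and 0.09 with the block) that did not pass.

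CYR61 was the member with the most even difference with doxycycline, and it was higher after the drug in every pair of libraries of 1 line and tag. In scrambled cells it was 589, 639 and 441 FPKM in untreated libraries and 696, 851 and 579.6 FPKM in the treated ones. In miR-139 cells it was 634, 601 and 461 FPKM untreated and 679.8, 680.4 and 517 FPKM treated. The untreated and treated groups overlapped in both lines, because the TR libraries lay below the others, while each tag taken alone gave a higher treated value. The group means were 556 ± 103 and 709 ± 136 FPKM (SD, n = 3) in the scrambled line and 565 ± 91.8 and 626 ± 94.4 FPKM in miR-139 cells.

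The CYR61 change on the log2 scale was 0.35 (SE 0.20, and 0.10 with the block) in the scrambled line. With the block its unadjusted limma p was 0.0033 and its adjusted p 0.998, so it did not pass the test over all genes. With the tag as a block within each line the SE was 0.06, the unadjusted limma p 1.3e-04 and the adjusted p 0.168. The same fit gave an adjusted p of 0.453 for the change in miR-139 cells. In miR-139 cells the change was 0.15 (SE 0.20, and 0.10 with the block), and the difference between the lines, −0.20 (SE 0.29, and 0.14 with the block), did not pass. Averaged over both lines, a comparison added after the data were seen, the change was 0.25 (SE 0.14, and 0.07 with the block), with a limma adjusted p of 0.671 with the block. It was higher in 6 of 6 pairs of 1 line and tag, which 403 of the 9778 tested genes (4.12%) also were; CYR61 was the only member among them. Treatment, drug and 96 h together, went with 24.1% of the sum of squares of CYR61 over the 12 libraries. This share was 0.286% to 3.75% for the other 8 members, with a median of 2.05% over all tested genes.

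ANKRD1 had doxycycline differences of opposite sign in the 2 lines, and its treated libraries separated the lines. In miR-139 cells it was 4.29, 3.27 and 2.72 FPKM in untreated libraries and 2.53, 2.55 and 2.80 FPKM in the treated ones. Scrambled cells had 5.25, 2.52 and 3.45 FPKM untreated and 7.17, 3.37 and 5.08 FPKM treated. All 3 treated scrambled libraries were above all 3 treated miR-139 libraries, whereas the untreated groups overlapped. Of the tested genes, 237 (2.42%) had treated miR-139 libraries wholly below the treated scrambled ones, and ANKRD1 was 1 member of 9 among them.

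The FPKM values of ANKRD1 resolved into whole fragments. Values of low genes can step by the value of 1 fragment in each library. The smallest whole numbers that gave its 12 values were 101, 84 and 46 fragments in the untreated and 69, 61 and 70 fragments in treated miR-139 cells. They were 137, 56 and 92 fragments in the untreated and 183, 80 and 179 fragments in the treated scrambled line. Exact Poisson 95% intervals from these counts, which cover counting error only, ran from 1.95 to 3.54 FPKM over the treated miR-139 libraries. They were 6.17 to 8.29, 2.67 to 4.19 and 4.37 to 5.89 FPKM in the treated scrambled C, NE and TR libraries, so that the NE libraries of the treated lines, at 1.95 to 3.28 and 2.67 to 4.19 FPKM, overlapped within counting error. The other 8 members did not resolve in this way, LATS2 at a mean of 8.82 FPKM among them, and the reason was not tested.

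The ANKRD1 difference between the treated lines was −0.73 on the log2 scale (SE 0.25, and 0.17 with the block), with an unadjusted limma p of 9.0e-04 and an adjusted p of 0.185 with the block. It did not pass the test over all genes. The doxycycline difference was 0.38 (SE 0.25, and 0.17 with the block) in the scrambled line and −0.27 in miR-139 cells, and the difference between them was −0.65 (SE 0.35, and 0.24 with the block, unadjusted p = 0.0183 and adjusted p = 1.000 with limma and the block). Without the C libraries the difference between the treated lines was −0.49 with the block. ANKRD1 is also a gene of striated muscle: the 7 muscle markers summed to 1.81 to 3.02 FPKM in the treated miR-139 and 2.11 to 2.67 FPKM in the treated scrambled libraries, with MYH6, MYH7 and TNNT2 listed at 0 throughout and DES the highest at a mean of 1.59. Their part in the ANKRD1 difference was not tested.

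The promoter of ANKRD1 in RefSeq (GRCh38.p14, minus strand, 250 bases before to 50 after the start site) held more matches than any other member promoter in the table. Both strands were searched for GGAATG, the core that TEAD factors bind, and for TGANTCA, a wide form of the AP-1 core. N is any base, and it is T in the ANKRD1 match, not the usual C or G. AP-1 often acts beside TEAD, and these motifs share no bases here. The 3 stretches below show the matches in capitals, because ANKRD1 is the target gene that separated the treated lines.
ANKRD1 −220, chr10:90921291-90921318: tcaccaccaaaGGAATGgccctctcaca
ANKRD1 −195, chr10:90921265-90921293: acatttcttccTGATTCAcatattcagca
ANKRD1 −128, chr10:90921199-90921226: acactgagtctGGAATGaaaattcacct
Positions count from the RefSeq start site to the first base of the match. GENCODE 29 places the start of ANKRD1 further upstream, at 90921276, inside this window. By that start, the −220 match lies upstream, the −195 match ends on the start base and the −128 match lies downstream. Of 35116 promoters of this length, 14.0% held GGAATG, 1.37% held at least 2 copies and 7.71% held TGANTCA. Promoters of YAP1 and LATS2 each held 1 GGAATG, at −162 and 10. AJUBA has 2 promoters in the table, of which the one near its GENCODE 29 start held no match and the other, further downstream, held 1 GGAATG at −59. Those of TEAD2 held none; no promoter was printed for CYR61, CRIM1, TEAD1 and TEAD4. A match in these letters is not a measured binding site.

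CRIM1 was 84.4, 60.9 and 47.4 FPKM in untreated and 82.6, 55.1 and 50.3 FPKM in treated miR-139 cells. In the control line it was 83.3, 51.3 and 57.1 FPKM untreated and 102.6, 57.8 and 60.1 FPKM treated. All 3 tags were higher after doxycycline in the scrambled line, though the groups overlapped, and the changes were 0.18 (SE 0.28, and 0.10 with the block) there and −0.03 in miR-139 cells. The treated lines differed by −0.21 on the log2 scale (SE 0.28, and 0.10 with the block), which did not pass. Without the treated scrambled C library, at 102.6 FPKM, that difference was 0.054. This fit had no block and kept the C library of the treated miR-139 cells, so the tags were no longer balanced. CRIM1 was highest in the C library of every group, so the value cannot separate that library from its tag. Taken tag by tag, treated miR-139 cells lay below treated scrambled cells each time, by −0.31, −0.07 and −0.25 in the tag order.

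Read against all genes, the members' adjusted calls in the drug and line comparisons were at the background. Without the block, no gene passed an adjusted p of 0.05 in any of the 5 planned comparisons or in the mean over both lines (0% of 9778, and 0 of 9 members). With the block, 2 genes (0.0205%) passed in miR-139 cells, 0 (0%) in the scrambled line, 1 (0.0102%) in the difference of the changes, 11 (0.112%) between the treated lines, 0 (0%) between the untreated lines and 2 (0.0205%) in the mean over both lines, with 0 of 9 members each time. At an unadjusted p under 0.05 with the block, 438 genes (4.48%) and 0 members passed in miR-139 cells, and 391 genes (4%) and 2 members, CYR61 and ANKRD1, in the scrambled line. The figures were 336 genes (3.44%) and 1 member, ANKRD1, for the difference of the changes, and 702 genes (7.18%) and ANKRD1 again between the treated lines. Between the untreated lines they were 435 genes (4.45%) and 0 members, and in the mean over both lines 523 genes (5.35%) and 1 member, CYR61.

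Other YAP/TAZ target genes were read from a list of 22, of which 13 were in the table and were tested, with CYR61, ANKRD1, CRIM1 and LATS2 among them. None of the 13 passed the adjusted test in any drug or line comparison. In the scrambled line 11 of 13 had a change above 0 with a median of 0.14 on the log2 scale, beside 57.8% of all tested genes and a median of 0.02. In miR-139 cells 3 of 13 were above 0 with a median of −0.04, beside 51.2% and a median of 0.00. The difference of the changes was below 0 in 11 of 13 with a median of −0.16, beside 55.6% of all tested genes and a median of −0.02. These comparisons share libraries, and the list was not tested as a whole. Of the 9 target genes that are not among the members, 8 were above 0 in the scrambled line and 2 in miR-139 cells.

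These counts moved when libraries were left out. Without the untreated C library of miR-139 cells, 10 of 13 target genes were above 0 there, and without all C libraries 5 of 13. Without the treated C library of the scrambled line, 6 of 13 were above 0 in that line. The fits without a single library had no block and left the treated and untreated groups unbalanced over the tags. All 13 target genes were lower in the TR than in the C libraries. Those fits therefore cannot separate the part of a single library from that of its tag. For the difference of the changes the number above 0 was 2 to 6 of 13 over all libraries and tags left out in turn.

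**Figure D2:**
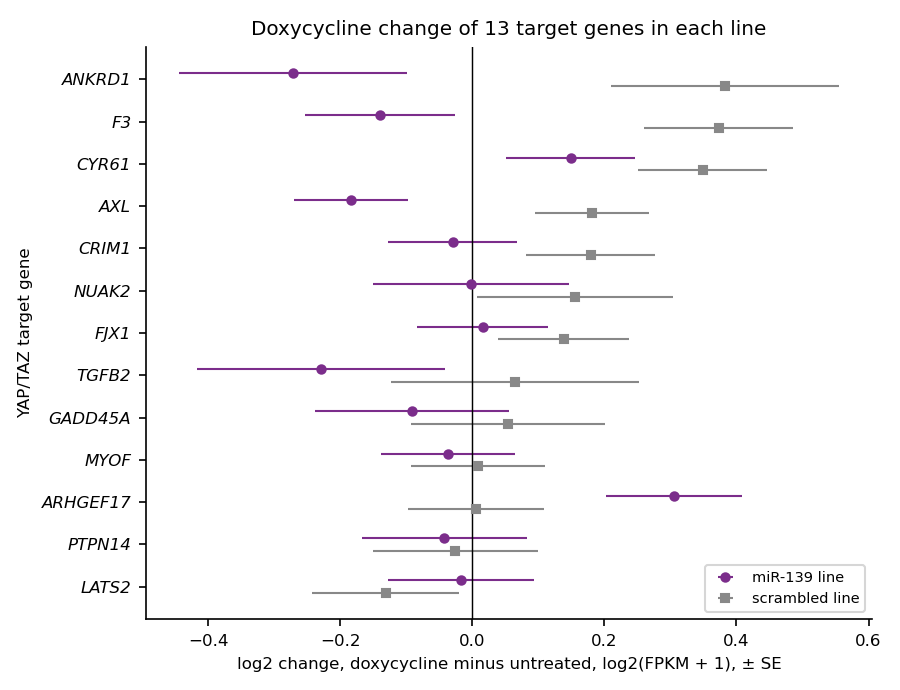
Change of the 13 tested YAP/TAZ target genes (y axis) after doxycycline in each line, as a log2 difference of FPKM + 1 with its blocked SE (x axis). In the scrambled line 11 of 13 genes lie above 0, and in miR-139 cells 3 of 13. Most genes, ANKRD1, F3, AXL and CRIM1 among them, thus lie on opposite sides of 0 in the 2 lines. CYR61 lies above 0 in both, and no gene passed the adjusted test.

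AXL, a receptor tyrosine kinase, and F3, the coagulation starter tissue factor, were the other target genes with differences between the treated lines beyond 0.3 on the log2 scale. AXL was 270.4, 230 and 176 FPKM in untreated and 226, 218 and 152 FPKM in treated miR-139 cells. In the scrambled line it was 268, 235 and 187 FPKM untreated and 284, 296 and 204 FPKM treated. It was lower after doxycycline in 3 of 3 tags of miR-139 cells and higher in 3 of 3 tags of the scrambled line, and its treated groups overlapped through the TR library. F3 was 36.0, 33.9 and 21.0 FPKM untreated and 30.6, 32.2 and 19.3 FPKM treated in miR-139 cells. It was 39.7, 30.8 and 18.3 FPKM untreated and 54.1, 42.0 and 21.8 FPKM treated in the scrambled line, where all 3 tags were higher after the drug. The treated lines differed by −0.40 for AXL (SE 0.09 with the block, limma adjusted p = 0.161) and by −0.45 for F3 (SE 0.11, adjusted p = 0.227), so neither passed. AXL and F3 were chosen after their values were seen.

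The rest of the pathway did not pass the test after doxycycline either. The Hippo kinase core had 5 tested genes of 8 listed, STK4, SAV1, LATS2, MOB1A and NF2, with a median change of −0.02 in miR-139 cells and 0.06 in the scrambled line. Of 20 tested upstream and junction regulators, 4 were above 0 in miR-139 cells (median −0.05) and 8 in the scrambled line (median −0.03). Of 16 tested targets of SRF, a factor that also answers to actin tension, 12 had a difference of the changes above 0, with a median of 0.06, while between the treated lines 5 were above 0, with a median of −0.02. No gene of these lists was called in the 2 doxycycline comparisons, the difference of the changes or the line comparisons.

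The column tag went with more of the variation of most members than the groups did. It took 53.4% to 90.8% of the sum of squares of 8 members, beside a median of 58.3% over all tested genes. ANKRD1 was the exception, with 31.2% for the tag against 28.2% for line and 18.8% for the combination of line and doxycycline. Comparing the NE libraries with the mean of the C and TR libraries, 5082 of 9778 genes (52%) passed the adjusted test, and 7 of 9 members did. Of these genes 2739 were higher and 2343 lower in NE, a split that was 2015 and 3064 with upper quartile scaling. In the comparison of TR with C, 1628 genes (16.6%) and 4 members passed. Every group holds 1 library of each tag, so tag and group are balanced, but what differs between the tags is not given.

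**Figure D3:**
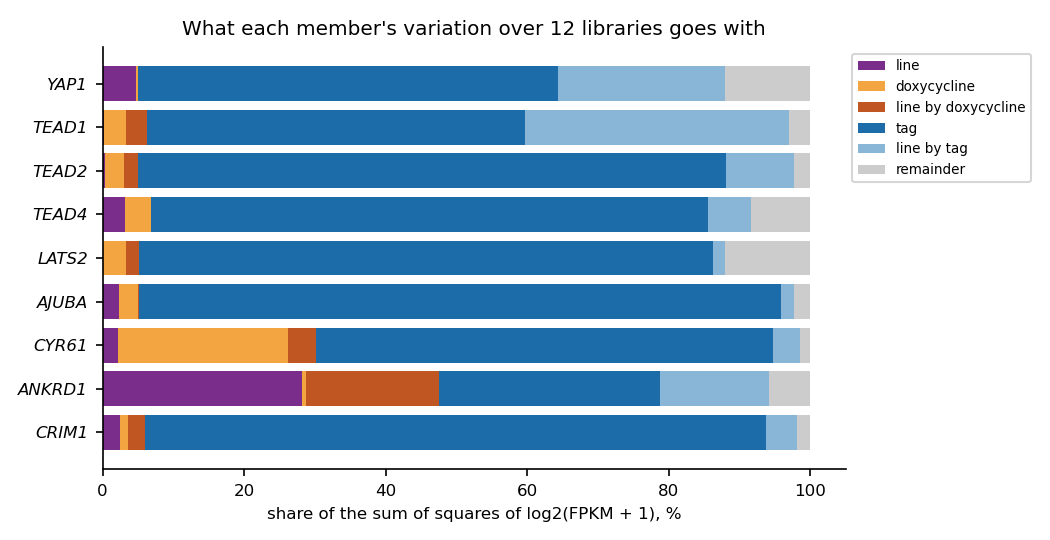
Share of each member's sum of squares of log2(FPKM + 1) over 12 libraries (x axis, percent) that goes with line, doxycycline, their combination, the column tag, the tag within line, and the remainder. The tag is the widest block for all 9 members, and doxycycline reaches 24.1% for CYR61.

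TEAD2 and TEAD4 were higher in the NE libraries than in those of either other tag. TEAD2 was 54.3 ± 6.95 FPKM in the 4 NE libraries, 34.3 ± 3.84 in the C and 39.7 ± 0.859 in the TR libraries (SD, n = 4), a difference of NE from the others of 0.54 on the log2 scale (SE 0.08, limma adjusted p = 1.2e-04). TEAD4 was 34.6 ± 5.85, 25.6 ± 1.94 and 21.96 ± 1.39 FPKM, a difference of 0.52 (SE 0.09, adjusted p = 2.7e-04). For both genes all NE libraries were above all C and TR libraries, as in either direction for 2351 of the tested genes (24%), and the calls held in every alternative and with every library or tag left out. In the NE libraries TEAD1 took 29.1% to 46.5% of the summed FPKM of the 3 factors, against 50.1% to 55.1% in the C libraries. Its share in the TR libraries, 40.6% to 49.0%, was also below that in C and overlapped that in NE.

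AJUBA, CRIM1 and LATS2 had their highest tag mean in the C libraries, as did TEAD1 and ANKRD1. AJUBA was 64.5 ± 4.99 FPKM in C, 45.0 ± 3.42 in NE and 42.4 ± 1.96 in TR libraries, and CRIM1 was 88.2 ± 9.61, 56.3 ± 4.07 and 53.7 ± 5.84 FPKM. All 4 C libraries were above the other 8 for each gene, but the share of all tested genes so separated was not counted. TR was below C by 0.59 for AJUBA (SE 0.07, limma adjusted p = 2.3e-04) and by 0.71 for CRIM1 (SE 0.08, adjusted p = 1.7e-04). Both calls held in every alternative run. The lower NE values that passed beside the mean of C and TR (−0.21 for AJUBA and −0.28 for CRIM1) turned to 0.082 and 0.069 once the C libraries were left out. LATS2 was 10.4 ± 0.678 FPKM in C, 7.35 ± 0.878 in NE and 8.69 ± 0.364 in TR libraries, with NE lower by 0.34 (SE 0.08, adjusted p = 0.0039), which became −0.22 and did not pass without the C libraries.

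CYR61 was lowest in the TR libraries, at 499 ± 62.4 FPKM against 649.5 ± 48.2 in C and 693 ± 110.2 in NE libraries. TR did not overlap the others, a separation whose share over all tested genes was not counted. TR differed from C by −0.38 (SE 0.09, limma adjusted p = 0.0085), and this call held in every alternative. The higher NE value (0.27, SE 0.07, adjusted p = 0.0067), by contrast, became 0.08 without the TR libraries and did not pass. All 13 tested YAP/TAZ target genes had a TR minus C difference below 0, with a median of −0.33, beside 50.8% of all tested genes and a median of −0.01. Of these, 6 passed, beside 1628 of 9778 genes (16.6%) called in either direction and 798 called lower. They were F3 (−0.93), CRIM1, AXL (−0.54), GADD45A (−0.49), a stress-response gene, NUAK2 (−0.44), a kinase, and CYR61. ANKRD1 was 4.81 ± 1.93 FPKM in C, 2.93 ± 0.452 in NE and 3.51 ± 1.10 in TR libraries, and its lower NE value (−0.34, SE 0.13, adjusted p = 0.0387) did not pass with 9 of 14 libraries or tags left out, with no filter (0.136) or with no group term (0.114).

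YAP1 had its highest tag mean in the TR libraries, with 48.9 ± 3.25 FPKM in TR, 39.3 ± 1.69 in C and 42.4 ± 5.59 in NE libraries. TR was above C by 0.31 (SE 0.09, limma adjusted p = 0.036) with no overlap between them, for which no share over all genes was counted. The call was lost in 8 of 13 cases with a library or tag left out, with no filter (adjusted p = 0.101) and with no variance trend (0.0604). TEAD1 was 66.9 ± 3.11 FPKM in C, 49.4 ± 10.1 in NE and 51.4 ± 8.72 in TR libraries, and neither its NE difference (−0.25, SE 0.11, adjusted p = 0.0734) nor its TR difference (−0.39, SE 0.13, adjusted p = 0.056) passed. The NE difference of TEAD1 did pass with upper quartile scaling (−0.35, limma adjusted p = 0.0272) and without the TR libraries (−0.45, adjusted p = 0.00159). Its TR difference passed at a mean of at least 5 FPKM (adjusted p = 0.0476), with no group term (0.0399) and without the NE libraries (0.0266). Of the Hippo kinase core, 4 of 5 genes were lower in NE than in the mean of C and TR (LATS2, SAV1, STK4 and MOB1A) and NF2 was higher. Of all 9778 tested genes, 2343 were called lower and 2739 higher in NE, 52% in either direction. Of the 20 tested upstream regulators, 3 passed higher and 7 lower in NE, a share near that of all genes, led by the polarity protein LLGL1 (0.48) and by STRN3 (−0.51), a subunit of a phosphatase complex. In TR 4 of the 20 passed lower than in C, AJUBA, FRMD6 (−0.55), INADL (−0.51) and TAOK3 (−0.44). Of all 9778 tested genes, 798 were called lower in TR than in C, and 16.6% in either direction.

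TEAD1 had a wide spread within tags, and its tag pattern differed between the lines. In miR-139 cells the NE libraries, at 63.8 and 49.3 FPKM, lay above the TR libraries, at 46.1 and 41.9 FPKM. In the scrambled line the order was the reverse, with NE at 42.0 and 42.6 FPKM and TR at 60.0 and 57.4 FPKM. NE minus TR was 0.34 on the log2 scale in miR-139 cells and −0.46 in the scrambled line, in each case with the same sign untreated and treated. In a fit with a term for line by tag, added after the data were seen, the NE difference was 0.56 larger in miR-139 cells for TEAD1 (SE 0.10, limma adjusted p = 0.0173) and −0.34 for TEAD2 (SE 0.10, adjusted p = 0.0417). For each line and tag this fit takes the untreated and the treated library as repeats, although same-tag libraries deviated together. Its p-values therefore measure how far those libraries agree, and not whether the difference between the lines would recur in another repeat. With a library or tag left out, the TEAD2 call was lost in 12 of 14 cases and the TEAD1 call in 4 of 14. In that comparison 1613 genes (16.5%) passed, 607 higher and 1006 lower, and 2 of 9 members, while for TR minus C 0 genes (0%) and 0 members passed. With upper quartile scaling the split was 1101 higher and 526 lower, and with no filter on low values or no variance trend no gene passed.

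**Figure D4:**
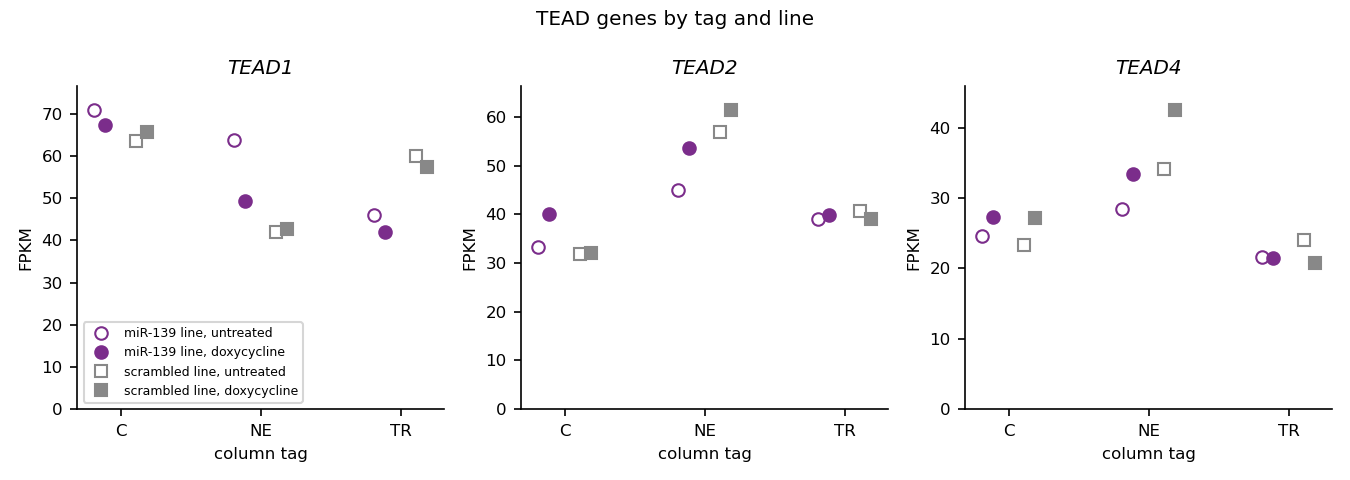
FPKM of TEAD1, TEAD2 and TEAD4 (y axis, from 0) by column tag (x axis), with open symbols for untreated and filled symbols for doxycycline-treated libraries and 1 symbol shape a line. TEAD2 and TEAD4 are highest in NE in both lines, while TEAD1 in NE and TR changes order between the lines.

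Genes whose pattern over the 12 libraries was most like that of CYR61, by Pearson correlation of log2(FPKM + 1), were KAT8 (r = 0.97), a histone acetyltransferase, FCHO1 (0.96), HAGHL (0.95), ERCC2 (0.95), a DNA repair helicase, and PFKM (0.94), a phosphofructokinase. Most like ANKRD1 were WDR87 (0.87), GFPT1 (0.86), AOX1 (0.86), LIMA1 (0.85) and RBM43 (0.84). The points share the 3 tags and the 4 groups. Once group and tag means were taken out, different genes led, among them BCL2L1 (0.99), PCYT2 (0.98), SIGIRR (0.98) and INTS5 (0.97) for CYR61, and CPM, JKAMP, JAG1, RHOQ and SAAL1 (0.98 to 0.97) for ANKRD1. Between CYR61 and ANKRD1 themselves, both known YAP targets, r over the 12 libraries was 0.13, and −0.66 once group and tag means were taken out.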

How the data were processed

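The deposited table holds FPKM values that the authors computed for 12 library columns. Per the submitters' processing notes, the tools were STAR 2.5, TopHat2 2.0.10 with Bowtie 1.0.0, Cufflinks, HTSeq, TopHat, SAMtools (versions 1.3.1 and 0.1.19) and FastQC 0.11.0, on the build GRCh37, also given as hg19. Which tool and annotation made the FPKM values, and whether strand was used, is not given in the sources used here. Columns were assigned to groups by name; the tags match no replicate letter of the labels. Per the design text there were 3 repeats of the experiment, but nothing ties a library to a culture, so p-values reflect only how these libraries vary, which may be technical.

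Genes with a mean of at least 1 FPKM were tested (9778 of 37471) in R 4.3.3 by limma 3.58.1 with a variance trend on the log2(FPKM + 1) scale, two-sided, with Benjamini-Hochberg adjustment over all tested genes and a threshold of 0.05; changes of low genes are understated on this scale. Group comparisons used 4 group means, without and with the tag as a replicate block; tag comparisons added tag to group. Same-tag libraries correlated (median r = 0.63), which is why the block is given. FPKM steps of low genes gave relative depths over a 2.08-fold range; total counts are unknown. The script was tested on simulated data. Members, gene lists and tests were chosen with earlier results of these data known. Besides the members, named genes are those of a list with the smallest adjusted p among those that passed, its highest gene, or examples of large change. Alternatives changed the pseudocount to 0.1, the filter, the scaling, the variance trend, the block and the libraries. Python 3.11.15 was used for tables and sequences. Chromosomes 3 to 9, WWTR1 included, were not analysed here.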

Additional observations from a re-analysis of the deposited data

Results flagged for a closer look

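Within the 4 libraries of 1 tag, a member's highest or lowest value was compared with its nearest neighbour by Dixon's criterion for 4 values. Of 27 such sets, 2 passed, and chance passes about 1 in 20. TEAD2 in the C libraries was 40.0 FPKM in the treated miR-139 line, beside 32.0 to 33.3 FPKM in the other 3. CRIM1 in the C libraries was 102.6 FPKM in the treated scrambled line, beside 82.6 to 84.4 FPKM in the other 3. The tag difference of NE from C and TR differed between the lines for TEAD1, by 0.56, and for TEAD2, by −0.34, on the log2 scale in limma's test of the difference itself. That test takes the untreated and the treated library of a line and tag as repeats, although same-tag libraries deviated together. The TEAD2 difference was no longer called in 12 of 14 cases with a library or tag left out, nor with no filter, no variance trend or upper quartile scaling, and the TEAD1 difference in 4 of 14 cases and with no filter or no variance trend. Which property of the libraries the tags stand for was not tested.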

How the results depend on the processing

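The column tag as a replicate block, which pairs the libraries, moved the number of genes called from 0 to 2 in the miR-139 line, 1 in the difference of the changes, 11 between the treated lines and 2 in the mean over both lines, and changed no call of a member. With the block and a pseudocount of 0.1 these counts were 2, 1, 8 and 2, and with the block and upper quartile scaling 2, 1, 11 and 2, with 1 in the scrambled line. A block of tag within line, added after the data were seen, gave 4 in miR-139 cells, 2 in scrambled cells, 2 in the difference of the changes and 6 in the mean over both lines. It called no member. With no filter the counts were 6 in the scrambled line, 1 in the difference of the changes, 5 between the treated lines, 2 between the untreated lines, 1 in the mean over both lines and 996 for TR minus C. The difference in NE between the lines gave 0 genes and 0 members with no filter and with no variance trend, and 4 members with upper quartile scaling.

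For doxycycline in the scrambled line, TEAD1 was −0.0357 and TEAD2 −0.0204 with upper quartile scaling, with and without the block, and TEAD1 −0.00995 with median ratio scaling. The target counts have no value at a mean of at least 5 FPKM, where 3 of the 13 genes were not tested. The cause of these changes was not tested.

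Leaving out 1 library or the 4 of a tag gave the following ranges. Genes called were 0 to 2 in the miR-139 line, 0 to 6 between the treated lines, 876 to 2282 for TR minus C, 0 to 2019 for the line difference in NE and 0 to 20 for that in TR minus C. Members called were 3 to 8 for NE and 0 to 4 for the line difference in NE. Target genes above 0 were 2 to 10 in miR-139 cells, 6 to 12 in scrambled cells, 2 to 6 for the difference of the changes and 1 to 6 between the treated lines. For doxycycline in the miR-139 line AJUBA ranged from −0.26 to 0.14, CRIM1 from −0.24 to 0.18, LATS2 from −0.20 to 0.15, TEAD4 from −0.0322 to 0.28 and YAP1 from −0.12 to 0.0681. In the scrambled line AJUBA ranged from −0.24 to 0.0941, CRIM1 from −0.0842 to 0.38, LATS2 from −0.26 to 0.0174, TEAD1 from −0.18 to 0.17, TEAD2 from −0.24 to 0.23, TEAD4 from −0.16 to 0.33 and YAP1 from −0.11 to 0.15. Between the treated lines CRIM1 ranged from −0.42 to 0.0537 and TEAD4 from −0.33 to 0.17, and CRIM1 in the difference of the changes from −0.42 to 0.0543. Between the untreated lines ANKRD1 ranged from −0.27 to 0.15, CYR61 from −0.13 to 0.17, TEAD1 from −0.11 to 0.37 and TEAD2 from −0.31 to 0.10. For NE, AJUBA ranged from −0.51 to 0.0822, CRIM1 from −0.64 to 0.0695, CYR61 from 0.08 to 0.47, LATS2 from −0.46 to −0.22, ANKRD1 from −0.51 to −0.18, TEAD1 from −0.45 to −0.06 and YAP1 from −0.21 to 0.10. A group that lost 1 library was no longer balanced over the tags. In CYR61 the doxycycline difference stayed above 0 throughout, at 0.19 to 0.48 in the scrambled and 0.01 to 0.28 in the miR-139 line, and the difference between the treated lines in ANKRD1 stayed below 0, at −0.96 to −0.49. Total depth is unknown, and with 3 libraries a group the SE of most members was as large as their differences.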
